A study of Oryza sativa with 16 samples.

Results

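A set of 64 rice probe sets, out of 57194 on the array, had low values in water-treated seedlings and bright after 3 h of abscisic acid (ABA). A probe set is the group of short array probes that reads 1 transcript. Members were chosen by their own values on these arrays: a log2 value under 5 on all 4 water control arrays, above 8 on both ABA arrays, and under 6 on all 10 arrays of the other 5 hormones. These thresholds were met by 67 probe sets, and 3 of them (rab25, PP2C51 and OsC3H10) were left out by their annotated family. The families left out were late embryogenesis abundant (LEA) or dehydrin, protein phosphatase 2C (PP2C), heat shock protein or factor, and ABA 8'-hydroxylase genes. Genes annotated as SWEET, HOX24, WRKY, bZIP, C3H or bHLH were left out as well. Of the 64 members, 44 carried 1 gene in the platform annotation, which made 43 genes, and 20 had no gene given there. Only 2 of the genes had a name beyond a locus identifier. They were TIP3-2, a tonoplast aquaporin, and ITPK4, an inositol phosphate kinase. Whether the other 62 belong to the families left out could be judged only from their identifiers.

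The study measured total RNA of whole seedlings of Oryza sativa subspecies indica, variety IR64, grown in water culture for 7 days under 14 h of light and 10 h of dark. Seedlings then stood for 3 h in water (control1 and control2, 2 arrays each), or in auxin (IAA) or the cytokinin BAP at 50 µM, or in ABA, the ethylene precursor ACC, salicylic acid (SA) or jasmonic acid (JA) at 100 µM, with 2 biological replicates a group. All 16 arrays were of untransformed plants of this 1 variety, and every value comes from 1 dose and 1 time. The labels do not say how many seedlings made up a sample or which control set belongs to which hormone. In whole seedlings, a change in the number of cells of a type and a change in RNA per cell cannot be told apart.

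ABA is the hormone of drought, salt stress and seed maturation. Its receptors (PYL or RCAR proteins) bind ABA and then block clade A protein phosphatases (PP2C), which frees SnRK2 kinases to phosphorylate transcription factors of the bZIP family. Genes reached this way include those for dehydrins and other late embryogenesis abundant (LEA) proteins, for enzymes that make compatible solutes, and for the phosphatases and ABA-degrading enzymes themselves.

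The size of the ABA difference was fixed in part by the thresholds, so it is given as a description with no test. Control means of the 64 members ran from 1.85 to 4.83 (median 2.98), and ABA means from 8.26 to 13.5 (median 9.37). The difference between ABA and the 4 controls ran from 3.67 to 10.36 log2 units (median 6.70), against a median of -0.07 over the 24100 probe sets tested. All 64 members passed the filter on low values, and they passed it through the ABA arrays. Over all tested probe sets, 48.1% differed between ABA and the 4 controls at an adjusted p under 0.05 in limma, and 21.2% were higher under ABA. The selection used this contrast, so no share of the members is set against those figures.

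How far below the threshold a silent transcript lies on this scale depends on the background correction, so a lower figure is the ABA mean above a floor of 5. On that floor the differences ran from 3.26 to 8.51 log2 units (median 4.37). Of the members, 13 had an ABA mean of 12 or more, 14 lay between 10 and 12, and 37 lay under 10. Brightness differs between probe sets for the same amount of RNA, so the order of the members in the text is an order of array values, not of transcript amounts.

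**Figure D1:**
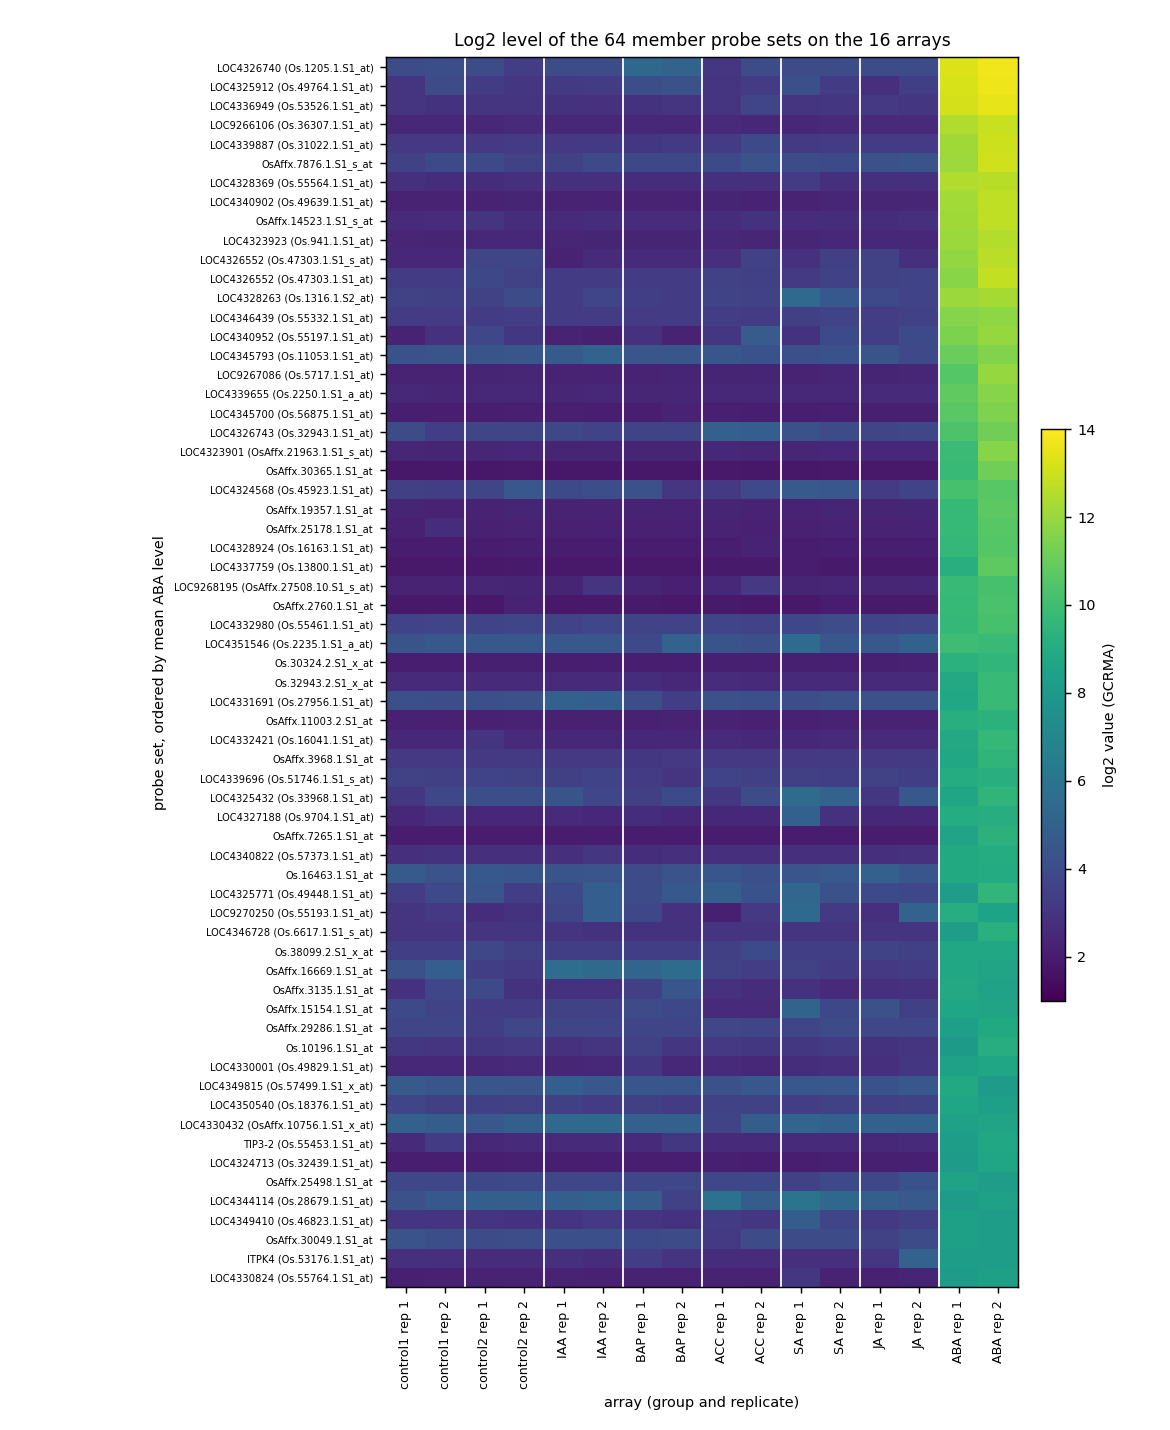
Log2 values (colour scale) of the 64 members (lines, ordered by mean ABA value) on the 16 arrays (columns, with white lines between groups). The 2 ABA columns, with member means from 8.26 to 13.5, stand apart from the other 14 columns, where 14 members reached 5 on at least 1 array.

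The brightest member was LOC4326740. It stood at 3.97 and 4.1 in control1 and at 4.02 and 3.38 in control2, against 13.30 and 13.73 under ABA. Over the 10 arrays of other hormones it ran from 3.06 to 5.39 with a median of 4.02. Both BAP arrays, at 5.39 and 5.15, were above every control and every array of the other 4 hormones. The ABA difference of LOC4326740 was 9.64 log2 units, or 8.51 above the floor of 5.

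LOC4325912 stood at 2.96 and 3.98 in control1 and at 3.26 and 3.03 in control2, against 13.22 and 13.68 under ABA. Its other-hormone arrays ran from 2.73 to 4.22 with a median of 3.29. Both BAP arrays (4.1 and 4.22) and SA replicate 1 (4.18) lay above every control, and JA replicate 1 (2.73) lay below. The difference was 10.14 log2 units, with an SD of 0.33 between the ABA arrays and 0.47 over the 4 controls.

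LOC4336949 differed by 10.36 log2 units from the controls, or by 8.34 above the floor of 5. Control1 gave 2.96 and 2.92, control2 gave 2.98 and 3.03, and ABA gave 13.15 and 13.53. The other hormones ran from 2.86 to 3.70 around a median of 2.98, and the highest was ACC replicate 2.

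Of the 13 members with an ABA mean of 12 or more, LOC9266106 varied least outside ABA. Control1 gave 2.50 and 2.49, control2 gave 2.51 and 2.54, and the other hormones ran from 2.48 to 2.56 (median 2.51), while ABA gave 12.45 and 12.91. All 14 arrays other than ABA thus lay within 0.08 log2 units. LOC4340902 behaved alike, with 2.28 and 2.26 in control1, 2.29 and 2.32 in control2, 2.23 to 2.42 under the other hormones (median 2.28) and 12.18 and 12.76 under ABA. Values this close together at the bottom of the scale mark the floor that the background correction sets, not a measured level.

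Further members with an ABA mean over 12 were LOC4339887 (12.15 and 13.03 on the ABA arrays), LOC4328369 (12.44 and 12.62), LOC4323923 (12.06 and 12.52), LOC4328263 (12.05 and 12.22) and 2 probe sets with no gene given, OsAffx.7876.1.S1_s_at (12.09 and 13.06) and OsAffx.14523.1.S1_s_at (12.16 and 12.77). Their highest control value was 4.01, in LOC4328263. By the annotation, LOC4326552 was the single gene with 2 member probe sets. One gave 11.87 and 12.67 under ABA and the other 11.67 and 12.80, with differences of 9.18 and 8.74 log2 units. Members with no gene given may belong to a gene already counted. Os.32943.2.S1_x_at, for one, shares the first part of its name with Os.32943.1.S1_at of LOC4326743.

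The next members in this order with a locus identifier were LOC4346439, LOC4340952, LOC4345793, LOC9267086, LOC4339655, LOC4345700, LOC4326743, LOC4323901, LOC4324568, LOC4328924, LOC4337759, LOC9268195 and LOC4332980. Their ABA means fell from 11.7 in LOC4346439 to 9.93 in LOC4332980, and their differences lay between 6.25 log2 units in LOC4332980 and 8.97 in LOC4345700. OsAffx.30365.1.S1_at, OsAffx.19357.1.S1_at and OsAffx.25178.1.S1_at, with no gene given, had differences of 8.64, 7.90 and 7.83 log2 units. By the thresholds, no control or other-hormone array of these members overlaps its ABA arrays.

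**Figure D2:**
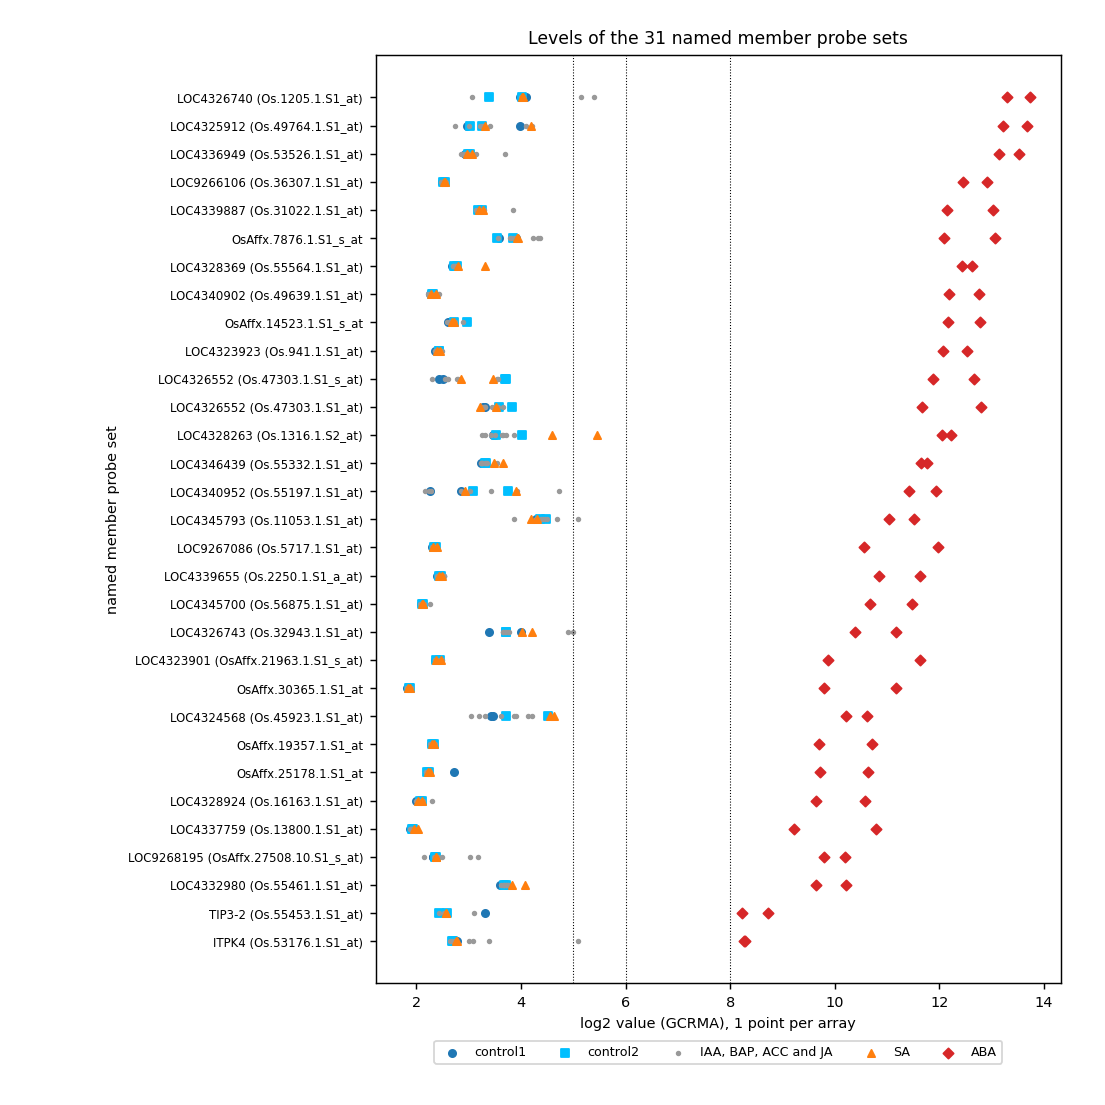
Log2 value on each array (1 point per array) of the 31 named member probe sets, with dotted lines at the thresholds of 5, 6 and 8. In each line the ABA points lie apart on the right, from 13.73 in LOC4326740 at the top down to 8.22 in TIP3-2. Among the other points past 5 are both BAP points of LOC4326740 and the SA replicate 1 point of LOC4328263. IAA, BAP, ACC and JA share 1 marker.

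The members with gene names were among the dimmer ones. TIP3-2 belongs to the TIP3 class of tonoplast aquaporins, which in Arabidopsis are known from the storage vacuoles of seeds. It stood at 2.57 and 3.31 in control1, at 2.43 and 2.59 in control2, at 2.44 to 3.11 under the other hormones (median 2.56), and at 8.22 and 8.72 under ABA. The ABA arrays were 5.75 log2 units above the controls, or 3.47 above the floor of 5.

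Among the tonoplast aquaporins as a family, a list drawn up after values had been seen and therefore not tested, TIP3-1 was the one that stood nearest to TIP3-2. TIP3-1 was already measurable in water, with 6.70 and 7.14 in control1 and 6.46 and 6.18 in control2, and gave 10.81 and 11.87 under ABA. TIP1-1, TIP1-2, TIP2-1, TIP2-2 and TIP4-1, with control means between 11.1 and 15.3, differed from the 4 controls by -0.23 to 0.45 log2 units, and dim TIP4-2 by 0.86. For TIP1-2 and TIP4-1 the sign turned with the control set, from -0.65 against control1 to 1.25 against control2 in TIP1-2 and from 0.40 to -0.48 in TIP4-1.

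ITPK4 is an inositol tetrakisphosphate kinase family member, and kinases of this family add phosphates to inositol on the way to phytate, the phosphate store of seeds. It stood at 2.74 and 2.77 in control1, at 2.67 and 2.70 in control2, and at 8.26 and 8.28 under ABA, a difference of 5.54 log2 units. Under the other hormones it ran from 2.64 to 5.09 with a median of 2.77, and the highest was JA replicate 2, while JA replicate 1 gave 3.08. In the same untested list of inositol phosphate kinases, IPK1 differed from the controls by 1.54 log2 units, ITPK1 by 0.67 and ITPK3 by -1.49, and ITPK2, ITPK5 and IPK2 by -0.03 to 0.29.

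The thresholds cut through a continuous range of values. The lower ABA array of the 3 members just inside was 8.11 for Os.10196.1.S1_at, 8.13 for LOC4349815 and 8.14 for LOC4324713. Just outside were LOC4343812 at 7.99, OsAffx.4035.1.S1_x_at at 7.98 and Os.46582.2.S1_x_at at 7.96. On the control side, the highest control array was 4.999 for LOC4330432, 4.91 for OsAffx.16669.1.S1_at and 4.88 for LOC4344114, and 5.1 for LOC4333770, 5.13 for OsAffx.31986.1.S1_at and 5.15 for LOC4338603 just outside.

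The condition on the other hormones removed few probe sets. Of 73 probe sets under 5 in all controls and above 8 under ABA, 6 were kept out because another hormone reached 6. SA did so for 4 of the 6, BAP and JA for 1 each, and IAA and ACC for 0. LOC4334644 gave 6.82 and 7.55 under SA against 2.63 to 3.99 in the controls, and 10.28 and 11.44 under ABA. HSP18.6, a small heat shock protein gene, gave 5.84 and 6.66 under SA against 4.23 to 4.68 in the controls, and 9.92 and 10.53 under ABA. LOC4351517 reached 6.79 in SA replicate 1 and 5.87 in SA replicate 2.

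The other 3 crossed the threshold by less. LOC4332420 reached 6.16 in SA replicate 2 alone, LOC4330275 reached 6.16 in BAP replicate 1 alone, and LOC4339496 gave 6.32 and 6.33 under JA. All 6 were brighter under ABA than on any other array. Just inside the threshold stood LOC4344114 with a highest other-hormone array of 5.98, OsAffx.16669.1.S1_at with 5.68 and LOC4325432 with 5.60.

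When the same thresholds and the same exclusion of families were applied with each other hormone in the place of ABA, SA gave 5 probe sets, IAA, BAP and JA gave 1 each, and ACC gave 0. ABA gave 64. Doses were 50 µM for IAA and BAP and 100 µM for the others, and only 3 h was sampled, so these counts describe these doses and this time.

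Low values outside ABA were imposed by the selection, but the spread below the caps of 5 and 6 was not the same for all members. The range over the 14 other arrays was under 0.5 log2 units for 24 members, 0.5 to 1 for 17, and 2 or more for 10 (median 0.66). The lowest ABA array stood above the highest other array by 2.2 to 9.89 log2 units, with a median of 5.93. All 14 other arrays were under 3 for 20 members and under 4 for 38.

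SA was the hormone with the largest number of members above the controls, although the selection capped its arrays at 6 and no test is given. Both SA arrays were above all 4 controls for 17 of 64 members, and such a pattern held for 16% of all tested probe sets. The reverse, both SA arrays below all controls, held for 0 members and for 18.1% of all tested probe sets. For JA the counts were 15 above (12.7% of all) and 0 below (14.8% of all). The median SA difference from the controls over the 64 members was 0.03 log2 units. Near the floor, a shift of that size can decide such counts. The shares are over all 24100 tested probe sets, of which 656 had all 4 controls under 5. They are therefore no like comparison for members chosen to be low.

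The other 3 hormones gave smaller counts above the controls. Both arrays were above all controls for 7 members under IAA (15% of all tested probe sets), for 4 under BAP (8.61%) and for 5 under ACC (9.81%). Both were below for 6 under IAA (14.0%), 8 under BAP (11.6%) and 3 under ACC (9.92%). The median difference from the controls over the 64 members lay between -0.03 log2 units for BAP and 0.05 for JA.

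For 6 members both SA arrays were above all 4 controls and the SA mean exceeded the control mean by at least 1 log2 unit. LOC4328263 gave 5.45 and 4.59 under SA against 3.47 to 4.01 in the controls. LOC4325432 gave 5.60 and 5.07 under SA, with 3.10 and 3.81 in control1 and 4.11 and 4.1 in control2. LOC4349410 gave 4.83 and 3.70 under SA, with 3.02 and 2.95 in control1 and 3.03 and 2.90 in control2. That both SA arrays lie above the controls and below both ABA arrays is set for all 6 by these conditions and the thresholds.

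In the other 3 of the 6, the SA arrays stood further apart or closer to the controls. LOC4327188 gave 5.03 in SA replicate 1 and 2.85 in SA replicate 2, and its highest control was 2.79. LOC9270250 gave 5.42 and 3.20 under SA, and also 3.70 and 4.86 under IAA, against controls of 2.68 to 3.14. LOC4344114 gave 5.98 and 5.32 under SA against 4.24 to 4.88 in the controls. Of the 3, only in LOC4344114 did both SA arrays reach 5.

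For the remaining hormones the members that met these conditions were few. They were LOC9270250 and OsAffx.16669.1.S1_at under IAA, LOC4326740 and OsAffx.16669.1.S1_at under BAP, LOC4326743 under ACC and ITPK4 under JA. LOC4326743 gave 3.40 to 4.0 in the controls and 4.99 and 4.89 under ACC. Across the set, 9 members reached 5 on at least 1 SA array, 5 on an IAA array, 4 on a JA array, 3 on a BAP array and 1 on an ACC array.

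The water controls came in 2 sets, and the difference between them was not used in the choice of members, beyond the cap at 5. With a fit of 8 groups in limma, 2 of 64 members differed between control1 and control2 at an adjusted p under 0.05, against 21.1% of all 24100 tested probe sets and 4.73% of the 656 tested probe sets whose 4 control arrays were all under 5. In either direction alone, 9.2% of all were higher in control2 and 11.9% lower. LOC4326552, on 1 of its 2 probe sets, was higher in control2 (3.71 and 3.70) than in control1 (2.43 and 2.51), by 1.23 log2 units with an SE of 0.34 (limma adjusted p = 0.0258). Its other probe set gave 3.83 and 3.57 in control2 and 3.32 and 3.27 in control1, and was not called. All these control values lie under 5, where the level depends on the background correction. The called probe set passed the filter on low values only through its ABA arrays.

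OsAffx.16669.1.S1_at was lower in control2 (3.40 and 3.23) than in control1 (4.21 and 4.91), by -1.24 log2 units with an SE of 0.24 (limma adjusted p = 0.0042). It was also above 5 on all IAA and BAP arrays (5.68, 5.49, 5.24 and 5.60) and at most 3.57 on the ACC, SA and JA arrays. Its ABA arrays gave 8.74 and 8.59. Each control set had 2 arrays, so with 1 left out that set has no replicate. Whether either call rests on a single array cannot be judged that way.

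The arrays also fell into groups by the spike-in RNA added to each sample, whose 5′ minus 3′ signal follows how far the labelled copies reach. On control1, IAA and BAP arrays this value ran from -1.49 to -1.18 log2 units, on control2, ACC, SA and JA arrays from -1.01 to -0.68, and on ABA arrays from -0.74 to -0.68. A second kind of spike, added at hybridization, averaged 9.90 to 10.8 on the first of these groups, 11.03 to 12.4 on the next, and 10.4 on both ABA arrays. Of the 64 members, OsAffx.16669.1.S1_at alone had all control1, IAA and BAP arrays above all control2, ACC, SA and JA arrays, as did 9.2% of all tested probe sets. For 12 members the former were all below the latter, a pattern found for 8.78% of all tested probe sets. In LOC9266106 and LOC4323923, both among the 12, all 14 arrays other than ABA lay within 0.08 and 0.13 log2 units. The part of the spike-in grouping in these members was not tested. The ABA difference had a median over members of 6.88 log2 units against control1 alone and 6.67 against control2 alone.

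The 2 ABA arrays were not alike in the members. ABA replicate 2 was higher than replicate 1 for 54 of 64 members (84.4%), with a median difference of 0.47 log2 units and a range from -0.77 to 1.76. Among 15577 other tested probe sets with an ABA mean above 8, replicate 2 was the higher for 49.1% (median -0.0036). Among the 387 non-members that stood at least 3 log2 units higher under ABA than in the controls, it was the higher for 66.1% (median 0.19). With 1 array on each side this has no replicate check, and the cause was not tested.

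The widest gaps between the ABA arrays were in LOC4323901 (9.88 and 11.64), LOC4337759 (9.23 and 10.79), LOC9267086 (10.55 and 11.97) and OsAffx.30365.1.S1_at (9.79 and 11.18). These gaps were 1.39 to 1.76 log2 units, and the lower ABA array stood 7.19 to 8.16 log2 units above the highest other array. The thresholds impose part of that distance, and the other arrays of these members lie near the bottom of the scale. Without ABA replicate 1 the thresholds would have taken in 87 probe sets, and without ABA replicate 2 they would have taken in 67.

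**Figure D3:**
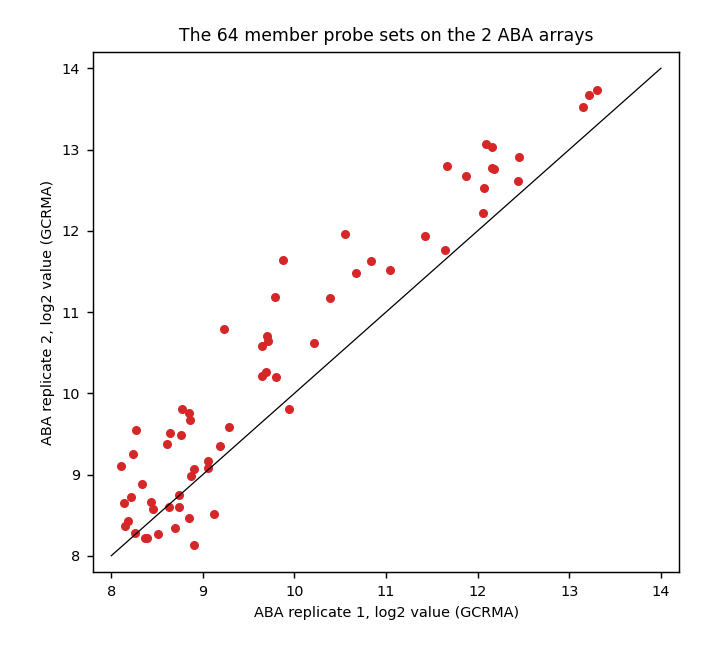
Log2 value on ABA replicate 1 (horizontal axis) and ABA replicate 2 (vertical axis) of the 64 members, 1 point per probe set, with the line of equal values. Points above the line are the 54 members with the higher value on replicate 2.

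For 5 genes among the members the array held a second probe set that was not a member, and these did not all move alike. The second probe set of LOC4345793 gave 5.41, 5.54, 5.43 and 5.45 in the controls and 10.39 and 11.45 under ABA, which follows the member probe set of that gene apart from its higher floor. The second probe set of LOC4330824 gave 8.13 to 8.40 in the controls and 8.41 and 8.26 under ABA. Second probe sets of LOC4339696, LOC4344114 and LOC4349815 were at most 3.45 on every array, with ABA differences of 0.28, 0.89 and 0.43 log2 units. Those of LOC4344114 (3.45 and 3.22 under ABA, at most 2.60 elsewhere) and LOC4349815 (2.95 and 3.28, at most 2.72 elsewhere) were, like their member partners, higher on both ABA arrays than on the other 14. For these 4 genes the ABA difference was measured at the size given on 1 of the 2 probe sets.

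Probe sets that can match more than 1 transcript were a minority. Of the 64 members, 7 had names ending in _s_at and 5 in _x_at, the endings that Affymetrix gives where probes are shared between transcripts or similar to others. The remaining 52, including 2 ending in _a_at, had other endings. Among the named members the shared kind included 1 of the LOC4326552 probe sets, LOC4323901, LOC9268195, OsAffx.7876.1.S1_s_at and OsAffx.14523.1.S1_s_at.

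Member genes were mostly scattered in the RefSeq gene order. LOC4326740 and LOC4326743 were the single pair at most 10 positions apart, with 2 protein-coding genes between them. LOC4326743, at most at 4.0 in the controls, reached 10.39 and 11.17 under ABA. LOC4326742, one of the genes between them, went the other way and fell by 1.41 log2 units (SE 0.13, limma adjusted p = 4.23e-06). LOC4326744, on the other side of LOC4326743, rose by 1.18 log2 units (SE 0.15, limma adjusted p = 5.72e-05). Of the 84 genes that flank the members, 47 had a tested probe set, and of these 14 were higher under ABA, 12 lower and the rest not called (21.2% and 26.9% of all tested probe sets), with a median difference of -0.003 log2 units against -0.07 over all tested probe sets.

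A few flanking genes were far above their controls although no member by the thresholds. LOC4332420, beside LOC4332421, rose on a further probe set from a control mean of 7.25 to 14.0, by 6.75 log2 units (SE 0.62, limma adjusted p = 3.82e-06). This probe set gave 6.63 and 5.83 in control1, 8.29 and 8.24 in control2, and 8.83 and 10.04 under SA. Its ABA difference was 7.77 log2 units against control1 and 5.73 against control2. PXG, a peroxygenase gene beside LOC9267086, rose from 8.15 to 12.8, by 4.66 log2 units (SE 0.25, limma adjusted p = 3.77e-08). LOC4323902, beside LOC4323901, rose by 3.03 log2 units, and LOC4331690, beside LOC4331691, rose by 2.66. On these probe sets the control means lay between 7.25 and 8.15, while the other probe set of LOC4332420, given above among those kept out by SA, stood at 3.20 to 4.55 in the controls.

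The named genes of the ABA pathway show what surrounded the members. Over 12 lists with 73 tested genes, 38 were higher under ABA than in the 4 controls, 9 were lower and 26 were not called (limma, adjusted over all 24100 probe sets), beside 21.2% higher and 26.9% lower of all. Of the families left out of the members, only LEA and dehydrin, clade A PP2C and ABA 8'-hydroxylase genes were listed. In these lists 9 of 9, 8 of 8 and 2 of 2 tested genes rose, with median differences of 7.13, 5.2 and 3.51 log2 units. Genes of the other families left out were not counted here. The first of these medians is the value of EM, an LEA gene that stood at 2.88 and 2.31 in control1 and at 12.08 and 11.75 in control2, so that its difference was 11.79 log2 units against control1 and 2.47 against control2. These counts are no independent support, since the lists were drawn up with results of these data known. They include rab25 and PP2C51, which passed the filter on low values only through their ABA arrays. The ABA differences of rab25 and PP2C51 are therefore a description with no test. With either ABA array left out, 5 of the LEA and dehydrin genes were called.

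Most genes of these lists had a control array at 5 or above and could not meet the thresholds. RAB16B, a dehydrin gene, went from a control mean of 7.54 to 14.8 under ABA. PP2C30, a phosphatase that holds back SnRK2 kinases in the absence of ABA, went from 7.62 to 13.7, and ABA8OX2, an ABA 8'-hydroxylase that breaks ABA down, from 9.996 to 14.4. Of the tested genes of these lists, only rab25, PP2C51 and VP1, given below, had all 4 controls under 5. rab25 gave 3.27 to 4.85 in the controls and 11.79 and 12.35 under ABA, and PP2C51 gave 2.12 to 2.40 and 9.03 and 9.21.

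Upstream of them, 5 of 10 SnRK2 kinase genes rose, 3 fell and 2 were not called. SAPK1 rose from 9.72 to 12.2, by 2.49 log2 units (SE 0.18, limma adjusted p = 4.29e-07), and SAPK10 by 1.74. SAPK2 fell by 1.38 log2 units (SE 0.14, limma adjusted p = 1.06e-05). SAPK3, which flanks the member LOC4349410, rose by 0.91. The receptor gene PYL5 fell by 0.95 log2 units (limma adjusted p = 0.000167). ZEP, for the zeaxanthin epoxidase of ABA synthesis, was 0.91 log2 units higher (limma adjusted p = 0.0211), but against control2 alone it was not called (limma adjusted p = 0.104) and without either ABA array it was not called.

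Among genes for compatible solutes and related sugars, 6 of 12 rose, 1 fell and 5 were not called. Of the 6, 4 were also called against each control set alone, and RFS and TPP9 were not called against control1 alone (limma adjusted p = 0.0521 and 0.15). P5CS2 and P5CS1, for the enzyme that commits glutamate to proline, rose by 2.62 and 1.31 log2 units, and TPP4, a trehalose phosphate phosphatase gene, by 1.52. TPP1, of the same enzyme family, fell by 2.90 log2 units (SE 0.24, limma adjusted p = 1.65e-06). P5CS1, P5CS2, TPP1 and TPP4 each had a control mean above 6.

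VP1 was low on every array but those of ABA, and there it stayed under 8. VP1 encodes the B3-domain factor that in cereal seeds works with ABA in maturation. It stood at 2.86, 3.12, 2.61 and 2.64 in the controls and at 6.55 and 7.03 under ABA, a difference of 3.98 log2 units. Like the members it passed the filter only through its ABA arrays, so its difference is a description with no test, although it is among the 38 higher genes. All 14 other arrays lay between 2.54 and 3.12. Of the other listed seed storage and oil body genes, GLUA2 and GLB1 were the 2 tested and were not called, though against control1 alone GLUA2 was higher by 0.78 log2 units (limma adjusted p = 0.0013) and against control2 alone GLB1 was lower, with a difference of -0.38 log2 units (limma adjusted p = 0.0219). Of the 12 such genes on the array, 9 were under 5 on both ABA arrays, among them GLUA1, GLUA3, RAG1 and RAG2. With either ABA array left out, VP1 no longer passed the filter that asks for 2 arrays above 5.

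Of the listed transcription factors, NAC2 rose from 7.18 to 10.9, by 3.69 log2 units (SE 0.21, limma adjusted p = 6.49e-08), and NAC048 by 2.12, among 3 of 6 NAC genes that rose and 0 that fell. DREB2A, for a factor of dehydration-responsive genes, rose by 2.1 log2 units, among 6 AP2/ERF and DREB genes with 1 higher and 1 lower (EREBP1, which was not called against control2 alone). Of 10 MYB genes, 1 rose (MYBS3, by 0.70), 2 fell and 7 were not called; without control1 replicate 2, 5 were called. LTP-2, a lipid transfer protein gene, rose from 5.56 to 12.3, by 6.74 log2 units (SE 0.32, limma adjusted p = 1.51e-08), while of the other 4 LTP genes 1 fell (LTP110-A, not called against control2 alone) and 3 were not called.

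**Figure D4:**
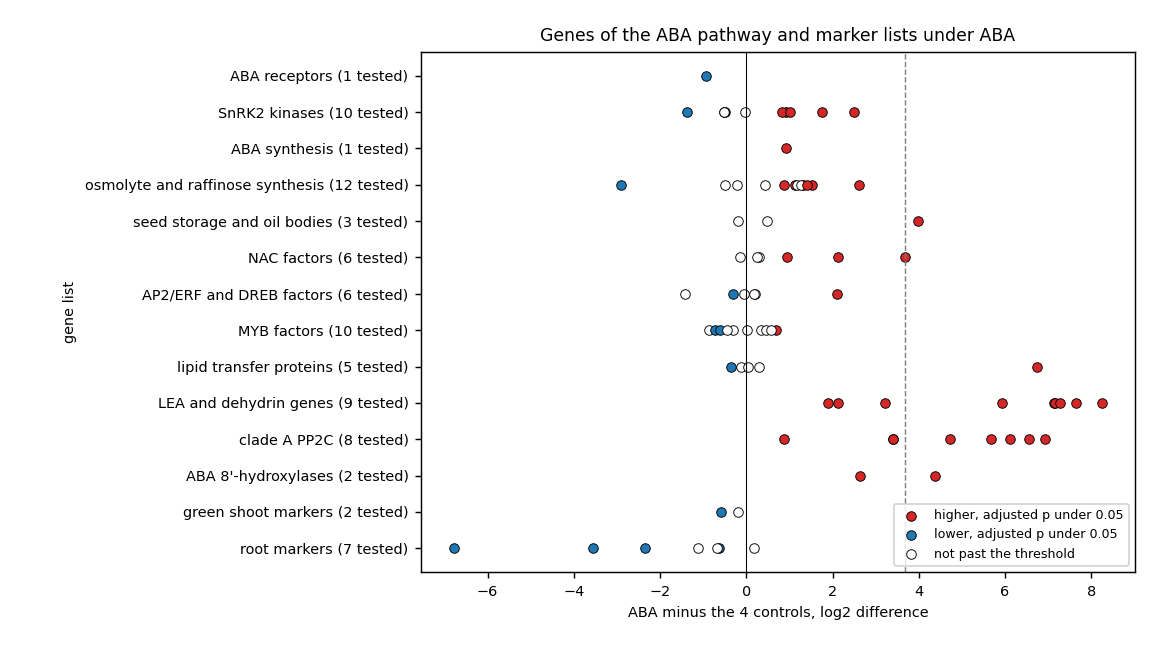
Difference between ABA and the 4 controls (log2 units, horizontal axis) for each tested gene of the ABA pathway and marker lists, coloured by the limma call. The dashed line marks 3.67, the smallest difference among the 64 members, and VP1, NAC2 and LTP-2 are the genes at or past it among the lists of storage, NAC and lipid transfer genes.

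The labelled tissue was checked on markers of shoot and root. The green markers RBCS and CAB2R, for Rubisco and a chlorophyll-binding protein, were bright in the controls (means of 14.5 and 15.9), RBCS1 was under 5 on every array, and RBCS fell by 0.60 log2 units under ABA. The summed level of the 3 green markers on the array, on the log2 scale, was 16.3 to 16.5 in the controls and 16.1 on both ABA arrays. Of 7 tested root markers, 4 fell and 3 were not called. Lsi2 and Lsi1, the silicon transporters of root cells, fell by 6.79 and 2.36 log2 units, and NRT2.3, a nitrate transporter, by 3.56.

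The summed level of the 8 root markers on the array was 14.5 to 14.8 in the controls, 13.4 to 14.8 under the other hormones and 13.1 to 13.2 under ABA. PHO1-3 was the root marker under 5 on all ABA arrays. Of the 12 seed genes, 10 were under 5 on all controls. The summed level of the 12 was 11.3 to 11.7 in the controls and 11.5 under ABA. That sum is mostly GLB1 (control mean 11.1), with GLUA2 (9.12), so low genes such as VP1 hardly enter it. GLB1 was listed by its symbol, and its role was not checked. The part of the marker shifts in the values of the members was not tested.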

How the data were processed

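Per the labels, biotin-labelled cRNA from 5 µg of total RNA of each sample was hybridized to the Affymetrix rice array. The deposited log2 values, 1 per probe set and array, were made by the authors with GCRMA, per the submitters' processing notes; it corrects background, normalizes between arrays and summarises probes. No source used here gives GCRMA's version or the log base, and the values are called log2 because of the range they cover. Array medians ran from 2.94 to 3.09, replicates correlated at 0.997 to 0.998, and 0 pairs of arrays were identical. Precision is limited by the number of arrays. In the fit with 8 groups, p-values measure the spread between samples labelled as biological replicates. In the fit with the 4 controls pooled, that spread also holds the difference between the 2 control sets.

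The 187 control and reporter probe sets were left out. Families were recognised by gene symbol and synonym in the platform annotation and the RefSeq gene table (assembly ASM3414082v1), which named all 17905 annotated genes and gave the gene order. No coordinates or sequences were used. Probe sets with a log2 value above 5 on at least 2 arrays (24100) were fitted with limma 3.58.1 in R 4.3.3 (lmFit, eBayes with trend), two-sided, with Benjamini-Hochberg adjustment over all 24100 and a threshold of 0.05, in 7 groups (4 controls pooled, 9 residual degrees of freedom) or 8 groups (8 residual degrees of freedom). The procedure was tested on simulated data. For a listed gene the probe set with the highest mean was used.

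The members and lists were chosen with earlier results of these data known, so members carry no test under ABA. The naming rule took members with a gene name, then those with a locus identifier by falling ABA mean up to 25 genes, then 5 probe sets with no gene, the 3 on each side of a threshold, and up to 4 genes a list by smallest p. Other members, the aquaporin and inositol kinase lists, some listed and flanking genes were chosen after their values were seen. Replicate numbers were not used as pairs in the main fits. Over 28 pairs of groups, deviations of same-numbered arrays correlated at -0.18 to 0.45 (median 0.04). The correlation was over 0.1 in 10 of them, including all 6 pairs among control2, ACC, SA and JA (0.11 to 0.45). Whether replicate numbers pair the samples of those groups cannot be told from these values. Alternatives covered normalization, thresholds, filter, variance prior, control set, single arrays and a replicate block.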

Additional observations from a re-analysis of the deposited data

Results flagged for a closer look

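Among the 31 named member probe sets, 3 had 1 control array set far from the other 3 by Dixon's criterion, at which chance picks out about 1 in 20 groups. LOC4339887 gave 3.25 on control2 replicate 2 against 3.17 to 3.18 on the others. LOC4328263 gave 4.01 on the same array against 3.47 to 3.53. OsAffx.25178.1.S1_at gave 2.73 on control1 replicate 2 against 2.197 to 2.24. All 3 values lie near the bottom of the scale and below the threshold of 5.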

How the results depend on the processing

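The 64 members became 42 with every threshold 0.5 log2 units stricter and 107 with every threshold 0.5 looser, the set being defined by those values. The count lay between 50 and 69 with quantile normalization, median centring, the other hormones under 5, no condition on them, no family left out, or 1 control set, and was 43 as genes. With each control or ABA array left out in turn it ran from 64 to 87; arrays of the other hormones were not left out singly. The 11585 calls between ABA and the 4 controls ran from 7529 (without ABA replicate 2) to 11703, and the 47 calls among listed genes from 34 to 50. The 5087 calls between control sets ran from 1747 (without control1 replicate 2) to 3677, with 2039 without control2 replicate 2 and 2848 without control1 replicate 1. The 2 members called between control sets became 1 with no filter and 0 to 1 with single arrays left out. With the replicate number as a block the counts were 11545, 50, 5444 and 2, and it changed no count by more than 1.5 times. With values under 5 set to 5, all 31 named differences were smaller by more than 1 SD, between 3.27 and 8.51, through that floor alone. The planned share of promoters with a motif was not run, as no promoter sequence was used. Values under 5 carry no order between genes, so a low member can be called dim but not absent.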
